A study of Rattus norvegicus with 115 samples.

Results

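Gene expression was compared between 6 broad beam (BB) irradiated tumours and 5 untreated tumours at 6 h. These 11 arrays were chosen by their titles and time from the 115 arrays of the series. The series profiled implanted 9L tumours, named rat glioblastoma by the labels, and the opposite brain hemisphere of 60 Fisher rats on Affymetrix rat arrays. BB, which spreads a single uniform dose over the field, was set there beside microbeam radiation therapy (MRT), which splits the field into narrow high-dose planes with low-dose valleys between them. The BB tumours came from rats 44 to 49, which received 17.4 Gy 10 days after 100000 9L cells had been implanted in the right caudate nucleus. The untreated tumours came from rats 1 to 5, which carried the same implant and received no irradiation. For context, 9 MRT tumours (rats 6 to 14, with a microbeam dose of 400 Gy and a valley dose of 18 Gy) and the opposite hemisphere of the same BB and untreated rats at 6 h were used. Each tumour array is a different rat, so the spread between arrays includes the spread between animals.

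Ionising radiation breaks DNA, and the break-sensing kinases stabilise the transcription factor p53. p53 then activates genes of cell cycle arrest, of its own degradation and of apoptosis, while cells held in G2 lower their mitotic transcripts. Irradiated brain also answers within hours with chemokines, adhesion molecules and interferon-type genes made by endothelium and glia. The tumour pieces are bulk tissue in which 9L cells, blood vessels, immune cells and host brain are mixed, so fewer cells of a type and less RNA per cell cannot be told apart. All 35 BB arrays of the series form a separate label set that was processed by RMA alone, whereas the other 80 were processed with MAS5 and RMA, per the submitters' processing notes. BB treatment and this set therefore cannot be told apart within tumours.

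The 6 BB arrays were not alike. The bacterial bioB control, a pre-labelled transcript added to the hybridisation mix at a fixed amount, read 9.31, 9.59 and 10.02 (log2 intensity) in BB tumours of rats 46, 47 and 48, and 7.33, 7.45 and 7.61 in those of rats 44, 45 and 49, against 7.35 to 8.04 in untreated tumours. The opposite hemispheres of rats 46 to 48 were bright in the same way, at 9.03 to 9.49. The Gapdh 3' minus 5' signal, a sign of RNA integrity, was 0.46, 0.00, 0.80, 0.66, 0.68 and 0.06 log2 in BB rats 44 to 49 and -0.19, 0.09, 0.43, -0.13 and -0.10 in untreated rats 1 to 5. BB rat 47 had the lowest mean over mitosis genes, 7.51, against 9.02 to 9.90 in the other BB tumours and 8.81 to 10.14 in untreated tumours. Untreated rat 5 had the highest macrophage marker mean, 9.71, against 7.75 to 7.95 in the other untreated tumours and 8.16 to 9.34 in BB tumours. The counts below are therefore also given with BB rats 44, 45 and 49 only. A gene is said to have held where both fits called it in the same direction. The second fit has fewer BB arrays and recovered fewer changes in simulated data. Why a gene did not hold was not tested.

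The tissue matched its label by its markers. Mean expression over 20 genes of 9L and mesenchymal tumour cells was 9.49 to 11.70 in BB tumours and 11.04 to 11.80 in untreated tumours, against 6.53 to 6.88 in the opposite hemispheres of these rats. Host brain was present in the tumour pieces too: the mean over 19 neuron markers was 10.76, 9.94, 9.70, 10.83, 9.97 and 9.76 in BB rats 44 to 49 and 10.62, 10.88, 10.86, 11.33 and 11.56 in untreated rats 1 to 5. BB tumours of rats 44 and 47 fell within the untreated range and the other 4 lay below it. By the brightest probe set per gene none of the 19 neuron markers passed the test singly, and their median difference was -0.89. A second probe set of Syn1, synapsin 1, was called lower (-1.62 ± 0.53, adjusted p = 0.0371), while the first differed by -1.43 (adjusted p = 0.0571).

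**Figure D1:**
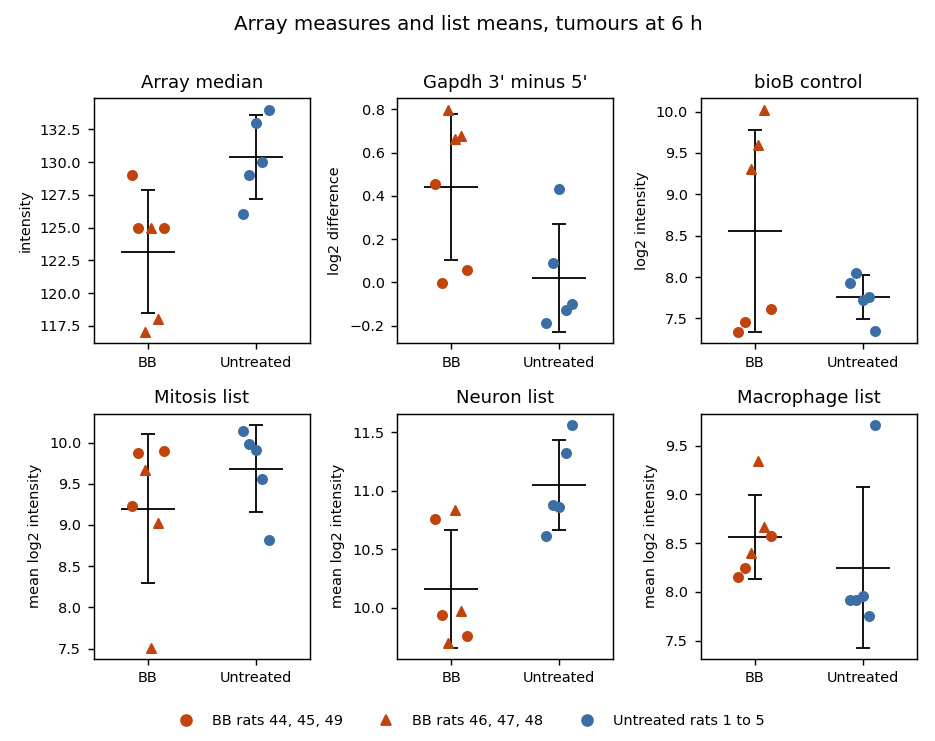
Array measures of the 6 BB (left) and 5 untreated (right) tumours at 6 h, 1 point per rat (triangles: BB rats 46 to 48) with mean and SD in black, and array median intensity, Gapdh 3' minus 5' signal, bioB signal and mean log2 level of the mitosis, neuron and macrophage genes as panels. The bioB points of BB rats 46 to 48 (9.31 to 10.02) stand above all other tumours plotted, and BB rat 47 lies lowest for mitosis genes.

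BB tumours differed from untreated tumours in 3555 of 31042 probe sets (11.5%), of which 2114 were higher (6.81%) and 1441 lower (4.64%), by limma with group means over all 59 tumour arrays and Benjamini-Hochberg adjustment (adjusted p under 0.05). With 1 probe set per gene, 1258 of 14217 genes rose (8.85%) and 864 fell (6.08%). With BB rats 44, 45 and 49 only, 853 probe sets were called (619 higher, 1.99%, and 234 lower, 0.754%), 380 genes rose (2.67%) and 165 fell (1.16%). Both fits called 217 genes higher (1.53%) and 132 lower (0.928%), and these are the genes that held. The values of the groups did not overlap in 664 genes (4.67%), 395 higher (2.78%) and 269 lower (1.89%). Of the genes that held, 86 risen and 47 fallen ones also had no overlap.

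A fit on the 11 arrays alone, which took its spread from them and not from the other tumours, called 30 probe sets (0.0966%) and 18 genes (0.127%), 14 higher (0.0985%) and 4 lower (0.0281%). Its unadjusted p was under 0.05 for 6124 probe sets. All 18 genes were also called with the 59 arrays, and 16 of them held. Leaving out BB rat 46 left 1244 probe sets, leaving out BB rat 48 left 2006 and leaving out untreated rat 4 left 2244, while leaving out BB rat 44 gave 4923. The median residual SD was 0.2715 log2 over all tumour arrays and 0.3044 over these 11 arrays.

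Of 87 genes named here as called, 55 kept the call without each single tumour in turn. The call was lost without BB rat 46 for Mdc1, Sparc, Sqstm1 and Vamp2, without BB rat 47 for Aurka and without untreated rat 5 for Xrcc5. It was lost without BB rat 46 or without untreated rat 5 for Csf1r, Pacsin1, RT1-DMa, Septin5 and Xrcc4, without BB rat 46 or untreated rat 3 for Eif2ak2, and without untreated rat 2 or 4 for Cebpb. For 19 others, 3 to 8 of the 11 tumours each ended the call when left out, namely Atf3, Ccne2, Cd14, Col6a2, Hmox1, Hspe1, Il6, Psmb10, Rfc4, S100a9, Sall1, Sele, Sesn2, Siglec5, Slc2a5, Srxn1, Sv2a, Tyms and Vwf.

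Some named genes have other probe sets that did not follow the brightest one. At least 1 was not called for Cdc20, Fzr1, Gclc, Hars1, Irf9, Nfkbiz, Nos1ap, Ptges, Sesn2, Sparc, Srxn1, Xrcc4 and Xrcc5, with the same sign. At least 1 had the opposite sign without a call for Adar (0.11 and 0.05), Camk2g (0.14), Ccne2 (-0.07), Col6a2 (0.04), Hk1 (0.10), Pacsin1 (0.29), Sqstm1 (0.33) and Srebf2 (0.18). For Vamp2, a vesicle fusion protein, the brightest probe set fell (-1.39) and another rose (0.35), so its direction is uncertain.

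Among the 17 pathway lists, the targets of p53 had the largest share of genes that rose. Of 30 measured targets, 15 rose (8.85% of all genes did) and none fell, 9 held (1.53% of all genes), and 8 had no overlap between the groups (2.78%). Their median difference was 0.50 log2, and 0.59 with BB rats 44, 45 and 49 only, against 0.05 and 0.03 over all genes. The upstream sequences of 3 targets that rose are shown because each has a p53 half-site, the decamer to which a p53 dimer binds. Each runs 5′ to 3′ on the gene's strand from 250 bases before to 50 bases after the start in RefSeq (GRCr8), with the half-site in capitals. Cdkn1a is at chr20:7150682-7150981 (+), Aen at chr1:142224283-142224582 (+) and Ccng1 at chr10:25684827-25685126 (-).
Cdkn1a: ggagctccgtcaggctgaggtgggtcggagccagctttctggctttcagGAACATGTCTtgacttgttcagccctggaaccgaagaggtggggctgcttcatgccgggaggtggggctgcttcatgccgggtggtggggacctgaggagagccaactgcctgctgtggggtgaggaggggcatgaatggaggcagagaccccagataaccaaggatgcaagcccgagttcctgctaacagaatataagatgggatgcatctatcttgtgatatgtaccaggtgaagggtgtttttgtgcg
Aen: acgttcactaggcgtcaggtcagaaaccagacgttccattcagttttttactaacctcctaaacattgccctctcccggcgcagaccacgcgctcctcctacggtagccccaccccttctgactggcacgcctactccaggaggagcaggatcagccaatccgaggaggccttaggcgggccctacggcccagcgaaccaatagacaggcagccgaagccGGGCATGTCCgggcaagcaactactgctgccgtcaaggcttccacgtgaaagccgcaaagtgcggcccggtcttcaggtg
Ccng1: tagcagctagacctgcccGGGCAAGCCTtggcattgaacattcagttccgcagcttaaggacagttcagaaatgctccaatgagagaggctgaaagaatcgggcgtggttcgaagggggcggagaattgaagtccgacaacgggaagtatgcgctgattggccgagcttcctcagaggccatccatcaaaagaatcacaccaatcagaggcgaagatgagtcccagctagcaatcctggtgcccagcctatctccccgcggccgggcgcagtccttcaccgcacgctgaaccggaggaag

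The half-site, searched on both strands by its consensus, lay at -201 to -192 from the start in Cdkn1a, at -30 to -21 in Aen and at -232 to -223 in Ccng1. It was present in 8 of the 25 p53 target promoters that the RefSeq table held and in 2671 of all 33469 promoters (7.98%). These 8 also included Gadd45a, Sesn1 and Trim24, which were not called higher. A match describes the letters in this window and does not show binding.

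Arrest and p53 feedback genes rose in 5 of 12, and all 5 held. Cdkn1a, the p21 inhibitor of cyclin-dependent kinases (probe set 1388674_at), read 10.93, 10.70, 9.95, 12.05, 10.83 and 10.80 log2 in BB tumours of rats 44 to 49, and 9.39, 8.82, 8.98, 8.34 and 8.68 in untreated tumours of rats 1 to 5. Its lowest BB value, in rat 46, was above every untreated value, and the difference was 2.03 ± 0.22 (SE; limma adjusted p = 1.62e-08). Mdm2, the ubiquitin ligase that degrades p53 (1383288_at), read 11.16, 11.30, 11.32, 11.50, 11.24 and 11.34 in BB tumours, and 10.35, 10.43, 10.37, 10.21 and 9.84 in untreated tumours. The 6 BB values of Mdm2 lay close together, from 11.16 to 11.50, and above all untreated values. Mdm2 was 1.07 ± 0.13 higher (adjusted p = 7.58e-07). Ccng1, cyclin G1 (1367764_at), read 12.20, 11.59, 12.02, 12.86, 12.17 and 11.43 in BB tumours and 9.94, 10.76, 10.50, 11.02 and 10.96 in untreated tumours. Its groups did not overlap either, and it was 1.41 ± 0.27 higher (adjusted p = 0.000765). Smaller rises that held were those of Ppm1d, the phosphatase that switches off damage kinases (0.64 ± 0.14, adjusted p = 0.00193), and Sesn2, a stress-induced regulator of mTORC1 (0.70 ± 0.21, adjusted p = 0.0248). Gadd45a, and Phlda3 of the apoptosis genes, were each 0.50 higher without passing the test (adjusted p = 0.193 and 0.136). Zmat3 and Plk2 differed by -0.07 and -0.10.

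Apoptosis genes rose in 6 of 9, and 3 held. Aen, an exonuclease that acts in p53-dependent apoptosis (1383491_at), read 9.13, 8.75, 8.57, 9.68, 9.13 and 8.71 in BB tumours and 7.64, 7.90, 7.84, 7.74 and 7.53 in untreated tumours. The groups were well apart, by 1.26 ± 0.14 (adjusted p = 1.62e-08). Fas, the death receptor (1384842_s_at), read 8.35, 7.95, 8.74, 9.61, 8.99 and 8.06 in BB tumours and 7.18, 7.01, 7.02, 6.79 and 6.71 in untreated tumours. Fas was 1.67 ± 0.22 higher (adjusted p = 3.84e-06) with its highest values in BB rats 46 to 48, and 1.17 higher with rats 44, 45 and 49 only. Bbc3, the BH3 protein PUMA, was 0.81 ± 0.16 higher (adjusted p = 0.000911) and held. Among the remaining 9 targets 4 rose, of which the non-coding RNA Pvt1 held (1.28 ± 0.21, adjusted p = 0.000106). Mgmt, which removes alkyl groups from guanine, read 7.04, 6.81, 8.05, 9.48, 8.85 and 6.87 in BB tumours and 5.64, 5.70, 6.25, 5.78 and 6.17 in untreated tumours. It was 1.94 ± 0.35 higher (adjusted p = 0.000415) without overlap, but BB rats 46 to 48 were higher than the other 3 and the rise did not hold.

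**Figure D2:**
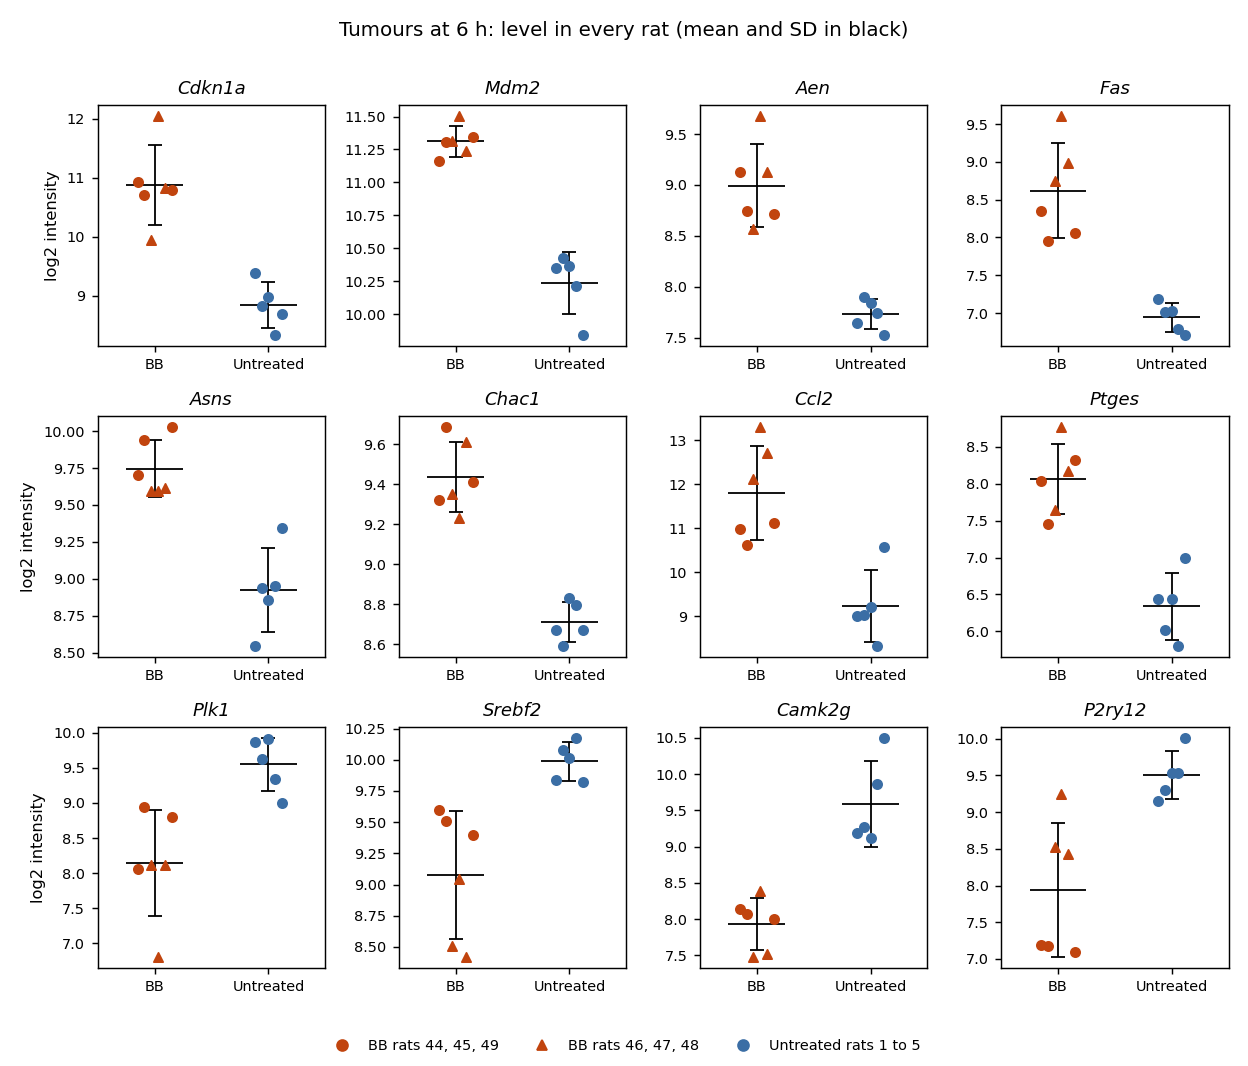
Log2 level in each BB (left) and untreated (right) tumour at 6 h of 12 genes, 1 point per rat, with the mean and SD in black; triangles are BB rats 46 to 48. Cdkn1a, Mdm2, Aen, Fas, Asns, Chac1, Ccl2 and Ptges are higher in every BB tumour than in any untreated tumour, Plk1, Srebf2 and Camk2g are lower in every BB tumour, and P2ry12 overlaps.

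Genes of the integrated stress response, among them genes of amino acid supply, gave a further set of rises. This pathway slows translation while the factor ATF4, working with C/EBP proteins, induces amino acid supply and feedback genes. Of 10 measured genes 5 rose, namely Chac1, Asns, Trib3, Cebpb and Sesn2, and all 5 held (8.85% of all genes rose and 1.53% rose and held). The list's median difference was 0.71 log2, and 0.86 with BB rats 44, 45 and 49 only. None of 9 unfolded protein response genes was called, and their median was -0.12. The promoters of Chac1, at chr3:126795881-126796180 (+), and Trib3, at chr3:161275484-161275783 (-), are shown in the same way because each has a C/EBP-ATF composite match (TGATGNAA on either strand, in capitals).
Chac1: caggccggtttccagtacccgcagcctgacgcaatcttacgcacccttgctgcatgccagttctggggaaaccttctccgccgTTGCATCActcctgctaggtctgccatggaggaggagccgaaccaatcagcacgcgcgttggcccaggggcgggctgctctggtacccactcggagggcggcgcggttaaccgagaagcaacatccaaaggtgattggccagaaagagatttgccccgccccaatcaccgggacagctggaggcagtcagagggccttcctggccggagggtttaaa
Trib3: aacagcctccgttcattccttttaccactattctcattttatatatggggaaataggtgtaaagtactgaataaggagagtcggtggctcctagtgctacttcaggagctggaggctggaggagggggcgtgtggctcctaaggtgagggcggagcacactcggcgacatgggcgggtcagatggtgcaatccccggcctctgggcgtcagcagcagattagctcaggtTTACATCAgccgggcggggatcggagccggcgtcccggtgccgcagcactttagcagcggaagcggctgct

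The match lay at -167 to -160 in Chac1 and at -21 to -14 in Trib3, both in the reverse orientation. It was found in 2 of the 10 promoters of this list and in 1332 of 33469 promoters (3.98%).

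Asns, asparagine synthetase (1387925_at), read 9.70, 9.94, 9.59, 9.59, 9.62 and 10.03 in BB tumours and 8.55, 8.94, 8.85, 8.95 and 9.34 in untreated tumours, without overlap, a difference of 0.82 ± 0.17 (adjusted p = 0.00152). Chac1, which degrades glutathione (1389573_at), read 9.32, 9.69, 9.35, 9.23, 9.61 and 9.41 in BB tumours and 8.67, 8.59, 8.83, 8.80 and 8.67 in untreated tumours, 0.72 ± 0.14 higher (adjusted p = 0.000594). The highest value of Asns was in BB rat 49 and that of Chac1 in BB rat 45, neither among the bioB-bright arrays. Trib3, a pseudokinase that feeds back on this pathway (1386321_s_at), read 9.76, 10.55, 9.33, 7.55, 8.99 and 10.55 in BB tumours and 8.24, 7.65, 8.23, 7.45 and 7.36 in untreated tumours. BB rat 47 lay within the untreated range and the other 5 above it, and the rise was 1.67 ± 0.42 (adjusted p = 0.00686). Cebpb, the C/EBP protein itself, read 10.65, 11.08, 10.38, 10.47, 10.82 and 11.22 in BB tumours and 9.88, 9.68, 10.05, 9.43 and 10.30 in untreated tumours, without overlap, 0.90 ± 0.27 higher (adjusted p = 0.0209). Atf4 itself differed by 0.08 ± 0.15 (adjusted p = 0.753) and Ddit3, which encodes CHOP, by 0.77 ± 0.31 (adjusted p = 0.0935). Outside the list, Psph, the last enzyme of serine synthesis, read 9.95, 10.39, 10.88, 9.79, 10.74 and 10.38 in BB tumours and 9.09, 9.09, 9.35, 9.03 and 8.52 in untreated tumours, 1.34 ± 0.19 higher (adjusted p = 1.16e-05) and without overlap. Hars1, the cytosolic histidyl-tRNA synthetase, was 1.07 ± 0.20 higher (adjusted p = 0.000507), and both held.

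Most DNA repair and replication genes were not called. Of 28 repair genes 4 rose (8.85% of all genes) and 1 fell (6.08%), and 2 of the rises held (1.53%). Their median was 0.15, and 0.42 with BB rats 44, 45 and 49 only. All 5 were genes of double-strand break repair. Lig4, the ligase of non-homologous end joining, read 8.37, 8.20, 8.52, 8.73, 7.95 and 8.21 in BB tumours and 7.59, 7.83, 7.54, 7.77 and 7.28 in untreated tumours. Lig4 had no overlap, was 0.73 ± 0.13 higher (adjusted p = 0.000239) and held. Nbn, of the MRE11 complex that senses breaks, was 0.61 ± 0.15 higher (adjusted p = 0.00727) and held, whereas Xrcc4 (0.56 ± 0.15, adjusted p = 0.0103) and Xrcc5 (0.55 ± 0.14, adjusted p = 0.0104) did not. Mdc1, the adaptor at phosphorylated histone H2AX, was 1.03 lower (adjusted p = 0.0117) and did not hold. Nhej1, which aligns ends for ligation and is in no list, read 7.07, 7.30, 7.24, 7.31, 7.62 and 7.25 in BB tumours and 6.34, 6.32, 6.34, 5.91 and 5.70 in untreated tumours, 1.18 ± 0.17 higher (adjusted p = 1.49e-05) without overlap, and it held. Of 33 replication genes, Ccne2 (cyclin E2), Rfc4 (a clamp loader subunit) and Tyms (thymidylate synthase) rose, a share near that of all genes, and none held. The replication median was 0.25, and 0.75 with BB rats 44, 45 and 49 only (0.05 and 0.03 over all genes), with 28 of the 33 above 0 in the fit of all BB tumours.

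Most genes of the mitosis list were not called, and the list had a negative median. Of 37 genes 4 fell (6.08% of all genes did), none rose and none held, and the median difference was -0.46 with all BB tumours and -0.01 with rats 44, 45 and 49 only. All 4 were among 18 regulators of G2 and mitosis. Plk1, the mitotic kinase (1370297_at), read 8.06, 8.94, 8.12, 6.81, 8.12 and 8.80 in BB tumours and 9.87, 9.63, 9.91, 9.34 and 9.01 in untreated tumours. Every BB value was below every untreated value, and Plk1 fell by 1.41 log2 with an SE of 0.33 (adjusted p = 0.00476). Cdc20, the activator of the anaphase-promoting complex, differed by -1.67 ± 0.43 (adjusted p = 0.00811), Pttg1 (securin) by -1.48 ± 0.40 (adjusted p = 0.0121) and Aurka (Aurora A) by -1.26 ± 0.36 (adjusted p = 0.0181). The neuron marker level moved with this result: with the mean over neuron markers as a covariate, 25 of the 37 genes fell (10.7% of all genes did in that fit, and 9.21% rose) and the median was -0.99, against 0.05 over all genes. The mean over 9L and mesenchymal markers was lowest in BB rat 47 too, at 9.49, and its part in the falls was not tested. Fzr1, the other activator of the anaphase-promoting complex and in no list, read 7.90, 8.42, 7.33, 8.07, 7.39 and 8.49 in BB tumours and 9.68, 9.35, 9.53, 9.19 and 9.05 in untreated tumours. Its difference of -1.43 ± 0.20 (limma adjusted p = 7.06e-06) held and was 1 of the 4 falls called on the 11 arrays alone.

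Chemokine genes rose in 11 of 31 (8.85% of all genes), with none lower, and 3 held (1.53% of all genes): Ccl2, Ccl7 and Cxcl11. By role 6 of 12 CC ligands, 4 of 12 CXC and CX3C ligands and 1 of 7 receptors rose. The median difference was 0.62 log2, and 0.40 with BB rats 44, 45 and 49 only. Ccl2, which recruits monocytes (1367973_at), read 10.98, 10.62, 12.10, 13.30, 12.71 and 11.12 in BB tumours and 9.00, 9.02, 9.21, 8.33 and 10.57 in untreated tumours. BB rats 46 to 48 were the highest and untreated rat 5 came just below the lowest BB tumour. The rise of 2.58 ± 0.40 (adjusted p = 5.5e-05) was 1.68 with rats 44, 45 and 49 only. Ccl7, a neighbour of Ccl2 in the same cluster, read 9.47, 9.21, 10.51, 11.67, 11.02 and 9.65 in BB tumours and 7.24, 7.28, 7.40, 6.81 and 8.59 in untreated tumours, with the same order of rats, 2.79 ± 0.47 higher (adjusted p = 0.000175). Cxcl11, a ligand of the T cell receptor CXCR3, read 9.55, 8.63, 9.36, 11.24, 10.11 and 10.04 in BB tumours and 6.21, 6.27, 6.43, 6.02 and 9.24 in untreated tumours. Untreated rat 5 overlapped the BB range, and the rise was 2.99 ± 0.60 (adjusted p = 0.00116). Cxcl10, which binds the same receptor, was 2.41 ± 0.49 higher (adjusted p = 0.00136) and did not hold, with 9.81 in untreated rat 5 and 6.85 to 7.44 in the other 4. The macrophage marker mean was highest in the same animals, at 9.34 in BB rat 47 and 9.71 in untreated rat 5, and its part in these rises was not tested.

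Of 37 cytokine and NF-kB genes 7 rose (8.85% of all genes), none fell and 2 held (Ptges and Sele; 1.53% of all genes), with a median of 0.27, and 0.16 with BB rats 44, 45 and 49 only. Of the 6 adhesion and prostaglandin genes among them 3 rose. Ptges, the inducible prostaglandin E synthase (1368014_at), read 8.04, 7.46, 7.64, 8.77, 8.16 and 8.32 in BB tumours and 6.44, 6.02, 6.44, 5.81 and 6.99 in untreated tumours, 1.72 ± 0.28 higher (adjusted p = 9.98e-05) without overlap. A second Ptges probe set was 0.63 higher and not called. Sele, the endothelial selectin, was 1.15 ± 0.38 higher (adjusted p = 0.0397) and Il6 1.56 ± 0.53 higher (adjusted p = 0.0466). Nfkbiz, a nuclear NF-kB cofactor, and Tnfsf9, the 4-1BB ligand, were 1.02 ± 0.23 and 1.01 ± 0.24 higher (adjusted p = 0.0037 and 0.00542), and a second probe set of Nfkbiz was 0.18 higher and not called. The NF-kB feedback gene Tnfaip3 (0.29 ± 0.26, adjusted p = 0.461) and the adhesion gene Icam1 (0.17 ± 0.30, adjusted p = 0.743) were not called.

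Interferon response genes rose in 14 of 49 (8.85% of all genes), 1 fell and 2 held (Rsad2 and Eif2ak2, the kinase PKR; 1.53% of all genes), with a median of 0.52 log2, and 0.41 with BB rats 44, 45 and 49 only. The antiviral effectors gave 10 of the rises among 29 genes. Rsad2, viperin (1370913_at), read 10.77, 10.48, 11.19, 11.95, 11.27 and 10.57 in BB tumours and 7.58, 8.72, 8.54, 8.03 and 10.70 in untreated tumours. Untreated rat 5 alone reached the BB range, and the rise of 2.32 ± 0.42 (adjusted p = 0.000468) held. Oas1b and Ifi44, both interferon-induced, were 1.13 ± 0.26 and 1.03 ± 0.24 higher (adjusted p = 0.00347 and 0.00405), and Irf9, the DNA-binding subunit of the interferon factor ISGF3, 0.70 ± 0.16 (adjusted p = 0.00455), and none of these held. Adar, the double-stranded RNA deaminase, was the member that fell (-0.56 ± 0.13, adjusted p = 0.00513). Gbp2, an interferon-induced GTPase, read 11.44, 11.46, 11.63, 12.17, 11.51 and 11.60 in BB tumours and 10.51, 10.87, 10.39, 10.36 and 10.74 in untreated tumours. Gbp2 was 1.06 ± 0.28 higher (adjusted p = 0.00937) without overlap, did not hold, and was called on the 11 arrays alone. Of 19 antigen presentation genes 1 rose and 1 fell. Psmb10, an immunoproteasome subunit, rose among 11 class I genes, and RT1-DMa, which loads class II molecules, fell among 8 class II genes with a median of -0.72. RT1-DMa read 7.98, 8.22, 7.52, 9.35, 8.24 and 8.53 in BB tumours and 9.13, 9.06, 8.99, 9.23 and 10.07 in untreated tumours. BB rat 47 overlapped, and the difference of -0.99 ± 0.27 (adjusted p = 0.0139) held.

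Of 43 neurotransmission genes 9 fell (6.08% of all genes), none rose and 2 held (0.928%), with a median of -0.59, and -0.67 with BB rats 44, 45 and 49 only. The neuron markers themselves moved with them, at a median of -0.89, and with their mean as a covariate the median over neurotransmission genes was 0.07, yet 7 genes were still called lower and 2 higher (10.7% and 9.21% of all genes in that fit). Those called lower were Camk2g, Grik5, Nos1ap, Pacsin1, Septin5, Sv2a and Vamp2. Grik5, a kainate receptor subunit, read 7.30, 6.49, 6.38, 7.52, 7.04 and 6.54 in BB tumours and 7.67, 7.92, 8.27, 8.25 and 8.72 in untreated tumours, without overlap, at -1.29 ± 0.32 (adjusted p = 0.00706), and it held. Camk2g, a calcium/calmodulin kinase subunit (1369993_at), read 8.13, 8.08, 7.48, 8.39, 7.52 and 8.00 in BB tumours and 9.19, 9.26, 9.12, 9.86 and 10.50 in untreated tumours. It differed by -1.65 ± 0.33 (adjusted p = 0.00126), held and was called on the 11 arrays alone, but its second probe set differed by 0.14 and was not called. Nos1ap, Septin5 and Pacsin1, genes of synapses, differed by -1.93 ± 0.48, -1.70 ± 0.45 and -1.89 ± 0.51 (adjusted p = 0.00701, 0.0113 and 0.0119). Second probe sets of Nos1ap (-1.25) and Pacsin1 (0.29, the opposite sign) were not called.

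Microglia markers fell in 5 of 9 genes (6.08% of all genes), and 3 held (0.928% of all genes). Their mean was 7.86 to 8.29 in BB tumours and 8.68 to 8.98 in untreated tumours, so the groups did not overlap. The median difference was -0.67, -0.96 with BB rats 44, 45 and 49 only, and -0.79 after adjustment for the neuron marker mean. That adjustment left 2 of the 9 called lower (10.7% of all genes), P2ry12 and Olfml3, of which P2ry12 was also called without it. P2ry12, the purine receptor of resting microglia (1380822_at), read 7.19, 7.18, 8.52, 9.25, 8.43 and 7.09 in BB tumours and 9.16, 9.30, 9.54, 9.53 and 10.01 in untreated tumours. BB rats 44, 45 and 49 lay lowest and rat 47 overlapped the untreated range. The difference was -1.56 ± 0.42 (adjusted p = 0.0126), and its second probe set fell as well (-1.35). Csf1r, the receptor for colony stimulating factor 1, and Sall1, a transcription factor of microglia, differed by -0.98 ± 0.30 and -0.67 ± 0.23 (adjusted p = 0.0283 and 0.0433), and both held. Slc2a5 and Siglec5 were also lower, and Tmem119 differed by -0.14 ± 0.52 (adjusted p = 0.878). Of 19 macrophage and monocyte genes none fell and 1 rose (Cd14, 1.10 ± 0.35, adjusted p = 0.0342) and their median was 0.34. Over all genes 8.85% rose and 6.08% fell, and the other cell type lists gave few calls beside these shares. S100a9 rose among 9 neutrophil genes (1.84 ± 0.62, adjusted p = 0.0442), Vwf fell among 17 endothelial genes, and Sparc and Col6a2 fell among 20 genes of 9L and mesenchymal cells. None of 19 T and NK cell genes was called although 18 were above 0, and none of 11 oligodendrocyte genes, whose mean ranged from 8.87 to 12.17 in BB tumours and from 10.03 to 11.39 in untreated tumours.

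Calls in the metabolic and stress lists are to be read against the 8.85% of all genes that rose and the 6.08% that fell. Of 20 cholesterol genes 5 fell and none held. Srebf2, the transcription factor of cholesterol synthesis (1371979_at), read 9.60, 9.51, 8.51, 9.04, 8.42 and 9.40 in BB tumours and 9.84, 10.08, 10.02, 10.18 and 9.82 in untreated tumours. The groups did not overlap (-0.91 ± 0.16, adjusted p = 0.000223), but the lowest 3 were BB rats 46 to 48 and its second probe set differed by 0.18 without a call. Of 24 hypoxia genes 2 rose and 2 fell, and all 4 held. Angptl4, an inhibitor of lipoprotein lipase, and Ddit4, an inhibitor of mTORC1, rose by 1.88 ± 0.35 and 1.03 ± 0.26 (adjusted p = 0.000522 and 0.00725). Eno1, the glycolytic enolase (1367575_at), read 11.76, 12.01, 11.02, 11.85, 11.29 and 12.05 in BB tumours and 12.72, 12.50, 12.50, 12.70 and 12.78 in untreated tumours, without overlap (-0.98 ± 0.16, adjusted p = 0.000106), and aldolase, Aldoa, was also lower (-0.78 ± 0.15, adjusted p = 0.000711). Of 16 Nrf2 targets 3 rose (Gclc, Srxn1 and Hmox1), Sqstm1 fell and none held. Of 12 reactive astrocyte genes 3 rose, with a median of 0.69, and none held; these were the iron oxidase ceruloplasmin, Cp, and Cxcl10 and Gbp2, which are also in the immune lists. Among 30 immediate early genes Atf3 rose (1.05 ± 0.31, adjusted p = 0.0203). Of 15 glucocorticoid targets 2 rose, of 24 matrix and protease genes 2 rose (Tfpi2 and Adamts9), the last share below that of all genes, and of 9 heat shock genes Hspe1 rose by 0.40.

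**Figure D3:**
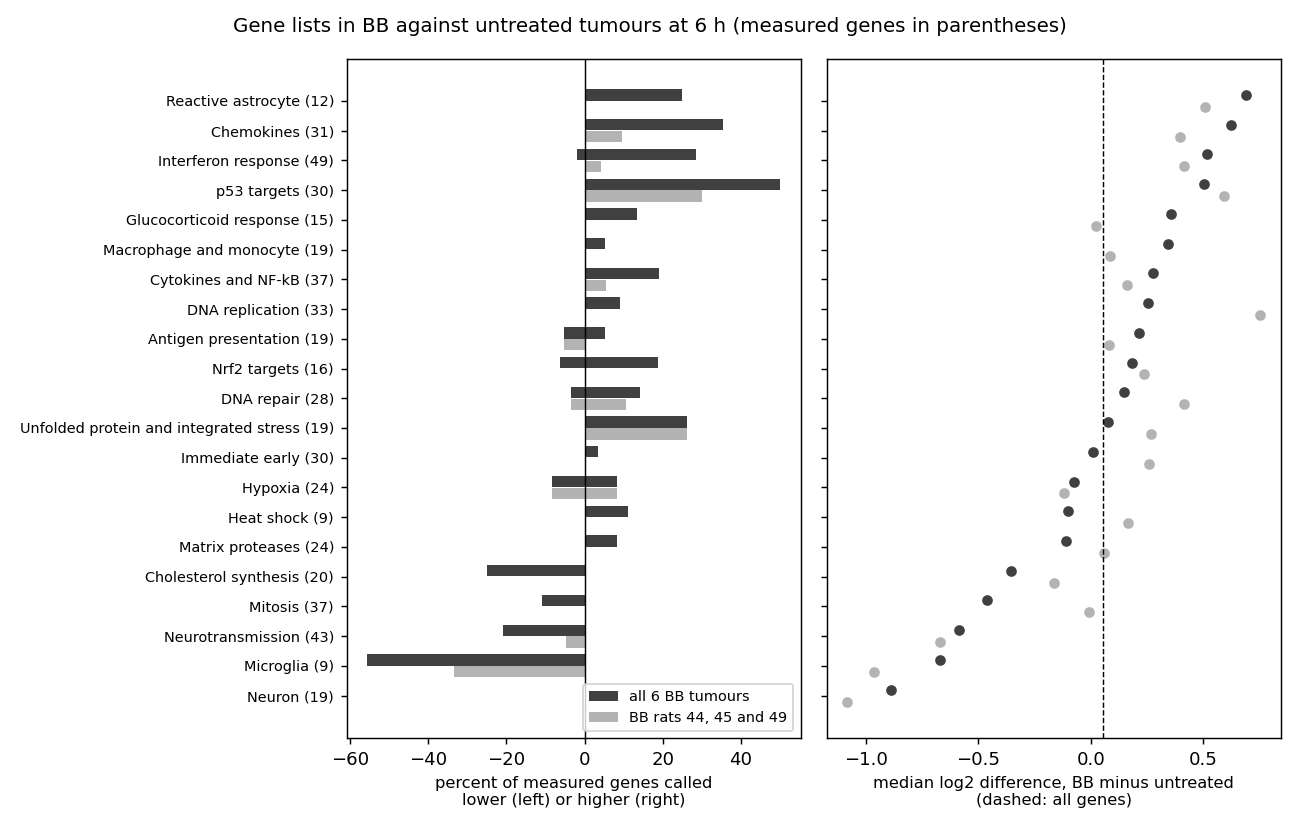
Percent of each list's measured genes that rose or fell in BB against untreated tumours, and the median log2 difference of the list, with all 6 BB tumours and with rats 44, 45 and 49 only. The dashed line marks the median over all genes (0.05). By percent called, the p53 list (15 of 30 rose) reaches farthest to the right and the microglia markers (5 of 9 fell) farthest to the left. By median with all 6 BB tumours, reactive astrocyte genes (0.69) lie farthest right and neuron markers (-0.89) farthest left.

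Further genes with the largest differences lay outside the lists. Tmem252, a transmembrane protein, read 7.83, 6.87, 7.29, 7.50, 7.82 and 7.25 in BB tumours and 5.49, 5.29, 5.78, 5.43 and 6.11 in untreated tumours, 1.81 ± 0.24 higher (adjusted p = 1.91e-06). Angpt2, the angiopoietin that destabilises vessels, read 9.67, 8.74, 8.95, 9.15, 9.16 and 8.76 in BB tumours and 7.58, 7.83, 7.73, 7.79 and 6.69 in untreated tumours, 1.55 ± 0.22 higher (adjusted p = 9.36e-06). Casp4, the inflammatory caspase that binds lipopolysaccharide, was 1.20 ± 0.23 higher (adjusted p = 0.000892). None of these 3 genes overlapped between the groups, and each held and was called on the 11 arrays alone. Golm1, a Golgi membrane protein, read 7.07, 6.60, 7.07, 7.65, 6.93 and 6.54 in BB tumours and 8.17, 8.57, 8.24, 8.69 and 8.75 in untreated tumours, -1.51 ± 0.32 (adjusted p = 0.0019), with its second probe set also lower (-1.68). Hk1, the hexokinase abundant in brain, and the growth arrest RNA Gas5 held too, at -1.12 ± 0.16 (adjusted p = 1.16e-05) and 1.20 ± 0.19 (adjusted p = 8.23e-05).

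BB and MRT tumours at 6 h were compared to set the uniform beam against the microbeams. With all 6 BB tumours 3287 probe sets differed (10.6%), 2091 higher (6.74%) and 1196 lower (3.85%) in BB. With BB rats 44, 45 and 49 only, 13 differed, 11 higher and 2 lower, and 4429 had an unadjusted p under 0.05. With BB and MRT tumours fitted alone limma called 0, so every call named here is lost in that fit, where 6317 had an unadjusted p under 0.05. Without BB rat 46 alone the count was 770, without BB rat 48 it was 1144 and without MRT rat 14 it was 2165. Cdkn1a and Mdm2 did not pass the test: Cdkn1a averaged 10.88 ± 0.68 in BB tumours (SD, n = 6) and 11.37 ± 0.42 in MRT tumours (n = 9), a difference of -0.49 ± 0.19 (SE, limma adjusted p = 0.081). Mdm2 averaged 11.31 ± 0.12 in BB and 11.36 ± 0.33 in MRT tumours, and differed by -0.05 ± 0.12 (limma adjusted p = 0.818). Of 37 cytokine and NF-kB genes 8 were lower in BB (4.73% of all genes were) and 1 higher (8.82%), among them Tnfaip3 (-1.18 ± 0.22, adjusted p = 0.000571) and Icam1 (-1.39 ± 0.27, adjusted p = 0.000573). C2h4orf33, an open reading frame gene, and Nubpl, an assembly factor of mitochondrial complex I, were higher in BB by 1.48 ± 0.19 and 1.07 ± 0.14 (adjusted p = 5.44e-06 for both) and were called with BB rats 44, 45 and 49 only as well. Every BB array lies in the set processed by RMA alone and every MRT array in the other, so beam type and array set cannot be told apart here.

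The opposite hemisphere of the same BB and untreated rats allowed the BB difference of the tumour to be set against that of brain without tumour. A shift between sets of arrays cancels in this difference of differences only if it is equal on the log2 scale in both tissues. Whether it was equal was not tested. The difference of differences was called for 331 probe sets (1.07%), 140 higher (0.451%) and 191 lower (0.615%) in the tumour, and for 178 genes (1.25%), 78 higher (0.549%) and 100 lower (0.703%). The probe set count was 36 with BB rats 44, 45 and 49 only (12 higher and 24 lower), 1001 with the rat as a block over all arrays and 67 on the difference within each rat. Leaving out a rat moved it by over 1.5 times for each BB rat and for untreated rats 2, 3 and 4, between 85 without BB rat 46 and 826 without BB rat 44. With only the groups compared in the fit, 98 were called. Of the 10 integrated stress genes, Asns, Chac1 and Trib3 were called higher in the tumour (0.549% of all genes), and the median was 0.22, against 0.05 over all genes. Asns was 0.82 higher in BB tumours, while it averaged 9.53 ± 0.12 in BB and 9.86 ± 0.06 in untreated opposite hemispheres, a difference between tissues of 1.15 ± 0.21 (limma adjusted p = 0.000607). Psph averaged 8.61 ± 0.17 in BB and 8.68 ± 0.13 in untreated opposite hemispheres, and its difference between tissues was 1.40 ± 0.22 (limma adjusted p = 2.07e-05). Both were also called with rats 44, 45 and 49 only and within rats. Chac1 and Trib3 differed by 0.92 ± 0.20 and 1.78 ± 0.48 (adjusted p = 0.00534 and 0.0394).

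The genes called the other way (0.703% of all genes) included 4 of 30 p53 targets and 3 of 31 chemokines. They also included 5 of 37 cytokine and NF-kB genes and 4 of 49 interferon genes, so most members of each of these lists were not called. Of 12 reactive astrocyte genes 6 were called this way. Their median difference between tissues was -1.45, against 0.05 over all genes, and their median BB difference in the opposite hemisphere was 2.18. The mean over these genes was 8.63 in untreated and 9.41 in BB tumours, and 6.24 and 8.43 in the opposite hemispheres. Gbp2 averaged 11.23 ± 0.20 in BB and 5.80 ± 0.40 in untreated opposite hemispheres, and its difference between tissues was -4.37 ± 0.45 (limma adjusted p = 1.6e-11). Ccl2 averaged 10.74 ± 0.14 in BB and 4.61 ± 0.22 in untreated opposite hemispheres, with a difference between tissues of -3.55 ± 0.58 (limma adjusted p = 6.95e-05). Cdkn1a averaged 10.80 ± 0.24 in BB and 7.41 ± 0.45 in untreated opposite hemispheres, with a difference between tissues of -1.36 ± 0.30 (limma adjusted p = 0.00913), which was not called within rats. Fas, Aen, Cxcl10, Ptges and Angpt2 were called in the same direction, whereas Mdm2 (-0.24 ± 0.17, adjusted p = 0.499) and Ccl7 (-0.52 ± 0.62, adjusted p = 0.697) were not. For Gbp2, Ccl2 and Cdkn1a the untreated mean was higher in the tumour than in the opposite hemisphere. Their BB means were not lower in the tumour, so a smaller BB difference is not a lower level. P2ry12 differed by -2.59 in the opposite hemisphere and by -1.56 in the tumour.

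**Figure D4:**
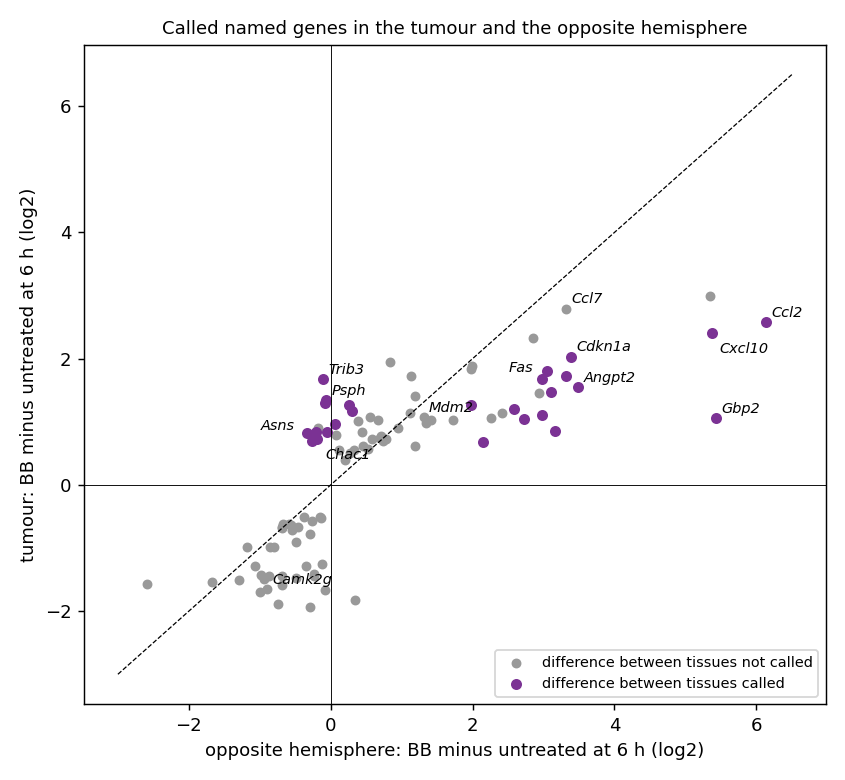
BB minus untreated log2 difference at 6 h in the tumour (vertical axis) against the opposite hemisphere (horizontal axis), 1 point per named gene called in the tumour, with purple for the genes whose difference between tissues was called. Asns, Chac1 and Psph lie above the diagonal and near 0 on the horizontal axis, and Gbp2, Ccl2 and Cxcl10 lie far right, below the diagonal of equal differences.

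The later tumours place the 6 h values in time, without a test here. Cdkn1a averaged 10.88 ± 0.68 (n = 6), 11.00 ± 0.22, 10.58 ± 0.44 and 9.81 ± 0.06 (SD, n = 4 each) in BB tumours at 6 h, 48 h, 8 d and 15 d, and 8.84 ± 0.39 (n = 5), 8.86 ± 0.40 and 9.72 ± 0.06 (n = 4 each) in untreated tumours at 6 h, 48 h and 8 d. The gap between BB and untreated tumours was thus wide at 6 h and 48 h and narrower at 8 d. Mdm2 averaged 11.31 ± 0.12, 11.18 ± 0.12, 10.88 ± 0.15 and 10.84 ± 0.11 in BB tumours at these times, and 10.24 ± 0.23, 10.48 ± 0.28 and 10.85 ± 0.07 in untreated tumours, so the means at 8 d differed by less than their SDs. Plk1 averaged 8.14 ± 0.76 in BB tumours at 6 h, below all their later means of 10.09 ± 0.18, 9.25 ± 0.94 and 9.61 ± 0.18, while untreated tumours averaged 9.55 ± 0.38, 9.57 ± 0.39 and 9.63 ± 0.32. Chac1 averaged 9.44 ± 0.18, 9.39 ± 0.10, 9.26 ± 0.11 and 8.62 ± 0.13 in BB tumours and 8.71 ± 0.10, 8.81 ± 0.21 and 8.64 ± 0.06 in untreated tumours. Ccl2 averaged 11.81 ± 1.07, 10.78 ± 0.46, 11.14 ± 0.91 and 11.26 ± 0.40 in BB tumours and 9.23 ± 0.82, 9.12 ± 0.39 and 9.65 ± 0.09 in untreated tumours, with the BB mean above the untreated mean at 6 h, 48 h and 8 d.

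**Figure D5:**
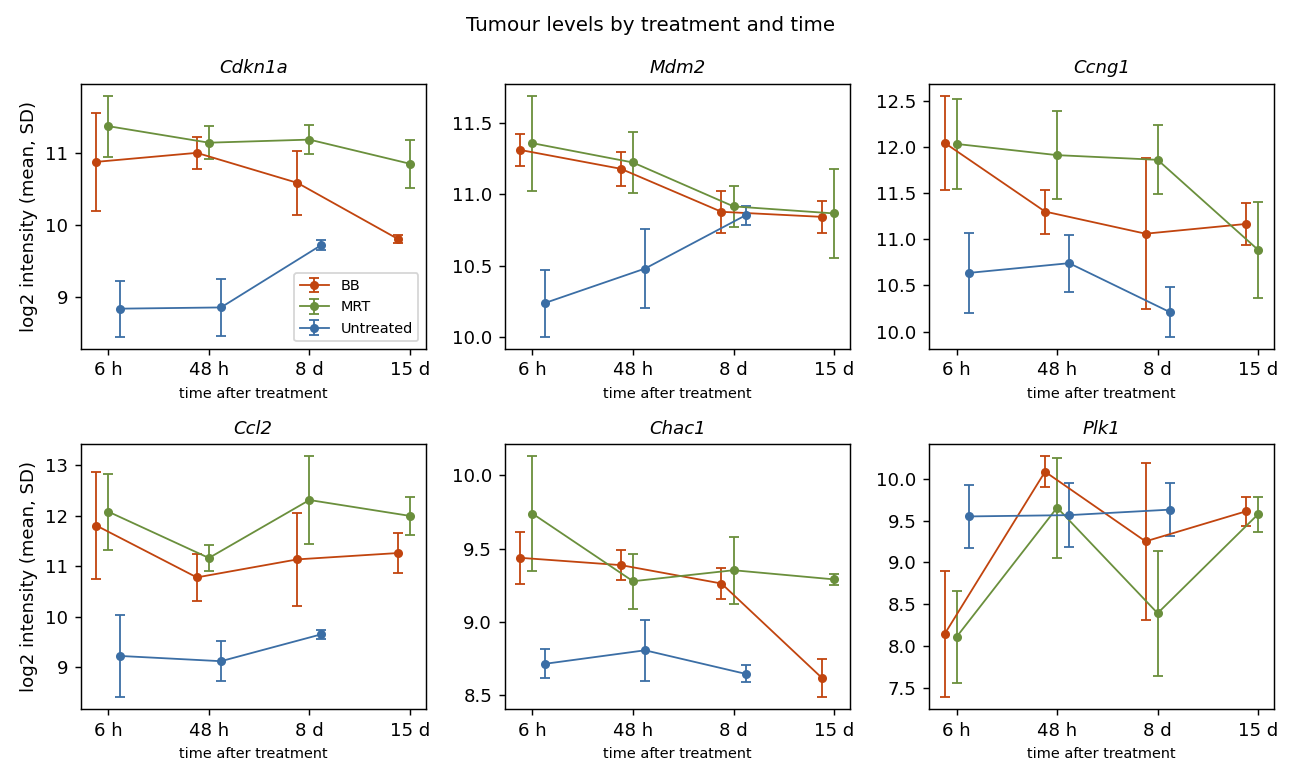
Mean log2 level with SD (bars) of Cdkn1a, Mdm2, Ccng1, Ccl2, Chac1 and Plk1 in BB and MRT tumours at 6 h, 48 h, 8 d and 15 d and untreated tumours at 6 h, 48 h and 8 d, with 4 to 9 arrays per point. The BB mean of Plk1 is lowest at 6 h (8.14) and that of Cdkn1a is highest at 48 h (11.00).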

How the data were processed

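Per the labels' protocols, total RNA came from the mirVana kit and 200 ng went into biotin-labelled cRNA (3' IVT Express kit). The deposited values are intensity, normalized by Affymetrix Expression Console (MAS5 and RMA for 80 arrays, RMA alone for the 35 BB arrays), per the submitters' processing notes, and rounded by the authors to whole numbers from 7 to 27837. Array medians ran from 117 to 129 in BB and from 126 to 134 in untreated tumours at 6 h. The planned test needs log2 values, which the file does not hold, so each intensity was log2-transformed before fitting. The number of arrays limits the precision, and labels name separate rats as replicates.

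Of 31099 probe sets, 57 controls were left out and 31042 tested. Of all probe sets 436 carry several symbols and 9780 none, and 20826 gave 14217 genes, each represented by its probe set brightest on average over all arrays. Symbols were updated through RefSeq for 20758 probe sets by gene ID and 2 by accession, and 66 kept the platform's name. Group means were fitted with limma 3.58.1 in R 4.3.3 (empirical Bayes with an intensity trend) and p-values adjusted by Benjamini-Hochberg over all probe sets tested. Tumour comparisons used all 59 tumour arrays in 11 groups, and the difference between tissues all 115 arrays. Data handling used data.table (1.17.8), Python 3.11.15, pandas 2.3.3, numpy 2.4.6 and matplotlib 3.10.9.

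The 17 pathway and 18 marker lists (650 of 736 listed genes measured) and the comparison itself were chosen with earlier results of these data known. The naming rule took the 12 largest rises and 12 largest falls without overlap, genes called on the 11 arrays alone, and up to 4 called members of a list, or up to 3 where none was called. In the other comparisons it took up to 6 of the largest in each direction. Not all genes so picked are named. Other genes named, such as Pvt1, Bbc3, Ppm1d, Sele, Icam1 and Tnfaip3, were chosen after their values were seen.

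The tissues are paired by animal. Over the 11 rats at 6 h the deviations of tumour and opposite hemisphere correlated at a median of 0.197 within a rat (over 0.1 in 8 rats) and -0.0416 between rats. The fit was tested on simulated data. The noise was normal and independent between genes, with a single SD per probe set shared by all groups of both tissues. Only a small part of the probe sets was changed. The unlikeness of the BB arrays was not simulated, so the shares of false calls below need not hold for the calls in the data. For BB against untreated tumours it recovered 28.4, 73.1 and 100 percent of changes of 0.5, 1 and 2 log2 with 8 of 142 calls false, and for the 11 arrays alone 8.96, 65.7 and 100 percent with 11 of 127 false. With BB rats 44, 45 and 49 only it recovered 13.4, 68.7 and 98.5 percent, with 10 of 130 false. For the difference between tissues it recovered 5.97, 61.2 and 93.9 percent, with 6 of 113 false. Alternatives changed the normalization, filter, variance prior, array weights, groups fitted, covariates and arrays kept.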

Additional observations from a re-analysis of the deposited data

Results flagged for a closer look

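Among 240 sets of values examined (each named gene and array measure in the 6 BB and the 5 untreated tumours), 1 tumour stood far from the rest of its group in 29 (12.1%), where chance gives about 1 in 20 groups for independent values, which genes of the same array are not. BB rat 47 was high for Atf3 (8.89), Cp (11.7), Csf1r (9.69), Gbp2 (12.2), Oas1b (8.22) and Tmem119 (10.1), and low for Aurka (6.64) and Cdc20 (7.29), all as log2 levels. Its mean over mitosis genes was 7.51 and over reactive astrocyte genes 10.3. BB rat 46 stood apart for Sqstm1 (10.6) and Xrcc4 (9.60), and BB rat 48 for Eif2ak2 (8.65). Untreated rat 5 stood apart for immune genes, with Cxcl10 at 9.81, Cxcl11 at 9.24, Nfkbiz at 7.22, RT1-DMa at 10.07 and Csf1r at 10.4. It also stood apart for Cp (10.3), Atf3 (8.24), Angpt2 (6.69), Hspe1 (12.3), Nubpl (7.77) and Pttg1 (10.2). Its marker means were 9.71 for macrophages, 9.13 for reactive astrocytes and 5.91 for neutrophils. Untreated rat 1 stood apart for Atf4 (12.4) and Casp4 (9.54). With all of these arrays kept, the groups still did not overlap for Angpt2, Casp4 and Gbp2.

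The BB difference was tested between tumour and opposite hemisphere, and it was called for 22 named genes. It was larger in the tumour for Trib3 (1.78), Psph (1.40), C2h4orf33 (1.38), Asns (1.15), Chac1 (0.92), Nubpl (0.91) and Nhej1 (0.88, all log2). It was smaller in the tumour for Gbp2 (-4.37), Ccl2 (-3.55), Sele (-3.23), Cxcl10 (-2.97), Icam1 (-2.14), Angpt2 (-1.94), Cd14 (-1.88), Atf3 (-1.67), Ptges (-1.59), Phlda3 (-1.40), Casp4 (-1.38), Cdkn1a (-1.36), Fas (-1.30), Tmem252 (-1.24) and Aen (-0.72). For Gbp2, Ccl2 and Cdkn1a the untreated mean was already higher in the tumour than in the opposite hemisphere, and the BB mean was not lower.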

How the results depend on the processing

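For BB against untreated tumours, 3555 probe sets were called. The count became 9685 with array weights, 30 with the groups compared fitted alone, 302 without BB rats 46 and 48, 0 without these and with the groups compared alone (3495 had an unadjusted p under 0.05 in limma), and 853 without BB rats 46, 47 and 48. Leaving out 1 array gave 1244 to 4923. For BB against MRT tumours, 3287 were called, and 6746 with array weights, 0 with the groups compared alone (6317 at unadjusted p under 0.05), 25 without BB rats 46 and 48, 13 without BB rats 46 to 48, and 770 to 4805 without 1 array. For the difference between tissues, 331 were called, and 2018 with array weights, 98 with the groups compared alone, 887 with the neuron covariate, 33 without BB rats 46 and 48, and 36 without BB rats 46 to 48. Leaving out 1 rat, with both its arrays, gave 85 to 826. With the rat as a replicate block the count for the difference between tissues was 1001, and 67 on the difference within rats. Fewer samples enter where arrays or groups were left out. Yet for BB against untreated tumours the count rose to 4923, 4640, 3686 and 4807 without BB rat 44, 45, 47 or 49. The cause of the changed counts was not tested for any setting. The sets without BB rats 46 to 48 were chosen after seeing the data. Centring on a common median gave 3451 higher and 1109 lower probe sets for BB against untreated tumours, and removing the dimmest probe sets 1530 higher and 1531 lower, beside 2114 and 1441 as reported. No named gene that was called turned its direction. The small number of arrays limits small differences. Changes of 0.5 log2 were mostly missed in simulated data. The deposited values are rounded, and the effect of rounding on small differences was not tested.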
